A study of Rattus norvegicus with 6 samples.

Results

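The genes described here were 10 of those that set the pace of G1 in the mammalian cell cycle. Among them were the D-type cyclins Ccnd1, Ccnd2 and Ccnd3 and their kinases Cdk4 and Cdk6. The rest were the CIP/KIP inhibitors Cdkn1a, Cdkn1b and Cdkn1c, the INK4 inhibitor Cdkn2b and the pocket protein Rb1. The 10 were chosen by name from the 40154 genes of the deposited count table, with Ccnd1 already known to respond. All 10 were among the 14852 genes that passed the count filter. RNA was measured by poly-A sequencing in primary atrial fibroblasts of Sprague-Dawley rats aged 1 to 3 days, which were kept in medium with fetal bovine serum. The cells had been transfected for 24 h with a control small interfering RNA (si-NC, 3 libraries) or with siRNA directed against Gpd1l (si-GPD1L, 3 libraries), the gene of a relative of glycerol-3-phosphate dehydrogenase. Both groups therefore shared the strain, the isolation by differential plating, the serum and a transfection, and the comparison asks what siRNA against Gpd1l changed. The digit at the end of each si-GPD1L title was read as a replicate number, but the sources used here do not say whether it numbers repeats or different siRNAs, so the spread within si-GPD1L could include differences between siRNAs. Nor do the labels say whether the libraries of a group came from separate isolations or wells, so the p-values measure the spread between these libraries, which may be technical.

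D-type cyclins are made in response to mitogens and bind CDK4 or CDK6, and the active kinases phosphorylate the retinoblastoma protein, which then releases E2F transcription factors that switch on the genes of DNA replication. INK4 proteins such as p15 bind CDK4 and CDK6 directly and keep cyclin D away, whereas the CIP/KIP proteins p21, p27 and p57 block CDK2 complexes and are also held by cyclin D complexes. In fibroblasts this switch is where growth factor, adhesion and antiproliferative signals such as transforming growth factor beta meet.

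The libraries held 16892255 to 20149732 counts. The chi-square per degree of freedom between libraries of a group was 4.10 to 6.18 for si-GPD1L and 8.93 to 29.6 for si-NC, and the largest values were those of si-NC replicate 1, so the fold changes that it moved most are also given without it. Gpd1l itself stood at 262, 332 and 313 normalized counts with si-NC, while the libraries labelled si-GPD1L held 220.3, 208 and 302.5 (log2 fold change -0.31, SE 0.15, adjusted p = 0.234), and replicate 3 of si-GPD1L lay within the si-NC range. The Gpd1l transcript thus did not separate the groups at the test's threshold, and directions below refer to the labels. Summed fibroblast markers were at 29389 to 39598 TPM in si-NC and 36492 to 39839 TPM in si-GPD1L, with si-NC replicate 1 the lowest. That sum is mostly collagen. By edgeR's quasi-likelihood test 2 of the 10 fibroblast markers were lower, beside 2.33% of all genes tested. These were Dcn, at -0.66 on the log2 scale, and Lum, at -0.77. Cardiomyocyte markers were still at 2972 to 3152 and 2763 to 2937 TPM, so transcripts that define muscle cells were still present after the plating step. The 10 endothelial markers summed to 31.0 to 38.2 TPM in si-NC and 49.98 to 59.0 TPM in si-GPD1L. Of the 9 tested 4 were higher, beside 4.03% of all genes tested. None of the 10 was at 0 in every library. Macrophage markers summed to 221 to 255 and 210 to 305 TPM. Smooth muscle and pericyte markers summed to 395 to 466 and 404 to 446 TPM. Of these 8 markers 1 was higher and 1 lower, beside 4.03% and 2.33% of all genes tested. The part of these other cells in the results below was not tested, and in bulk RNA fewer cells of a type and less RNA per cell cannot be told apart.

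Ccnd1 was the only one of the 10 genes that passed edgeR's quasi-likelihood test, and it rose. At an adjusted p under 0.05, 1 of the 10 was higher and 0 lower, beside 6.36% of all genes tested (4.03% higher and 2.33% lower). The same gene also passed an absolute log2 fold change of 1, beside 1.62% of all genes. Ccnd1 was put in the set as a known responder, so its place in these counts and those below was fixed by that choice. By this test the other 9 genes were not called. For the count of 0 lower genes, DESeq2's Wald test and edgeR's exact test each gave 1, Cdkn1c. Over all 14852 genes tested they gave 492 and 655 lower. At an unadjusted p under 0.05 there were 5 of the 10, beside 22.4% of all genes. Of these Ccnd1, Cdk6 and Cdkn1a were higher and Cdkn1b and Cdkn1c were lower, 2 genes beside 11.0% of all genes in the lower direction. In normalized counts the 2 groups did not overlap in 6 of the 10 genes (the cyclins, the kinases and Cdkn1a), beside 29.0% of all genes tested. The median log2 fold change was 0.11 over the 10 genes and 0.084 without Ccnd1, against -0.0049 over all genes tested.

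**Figure D1:**
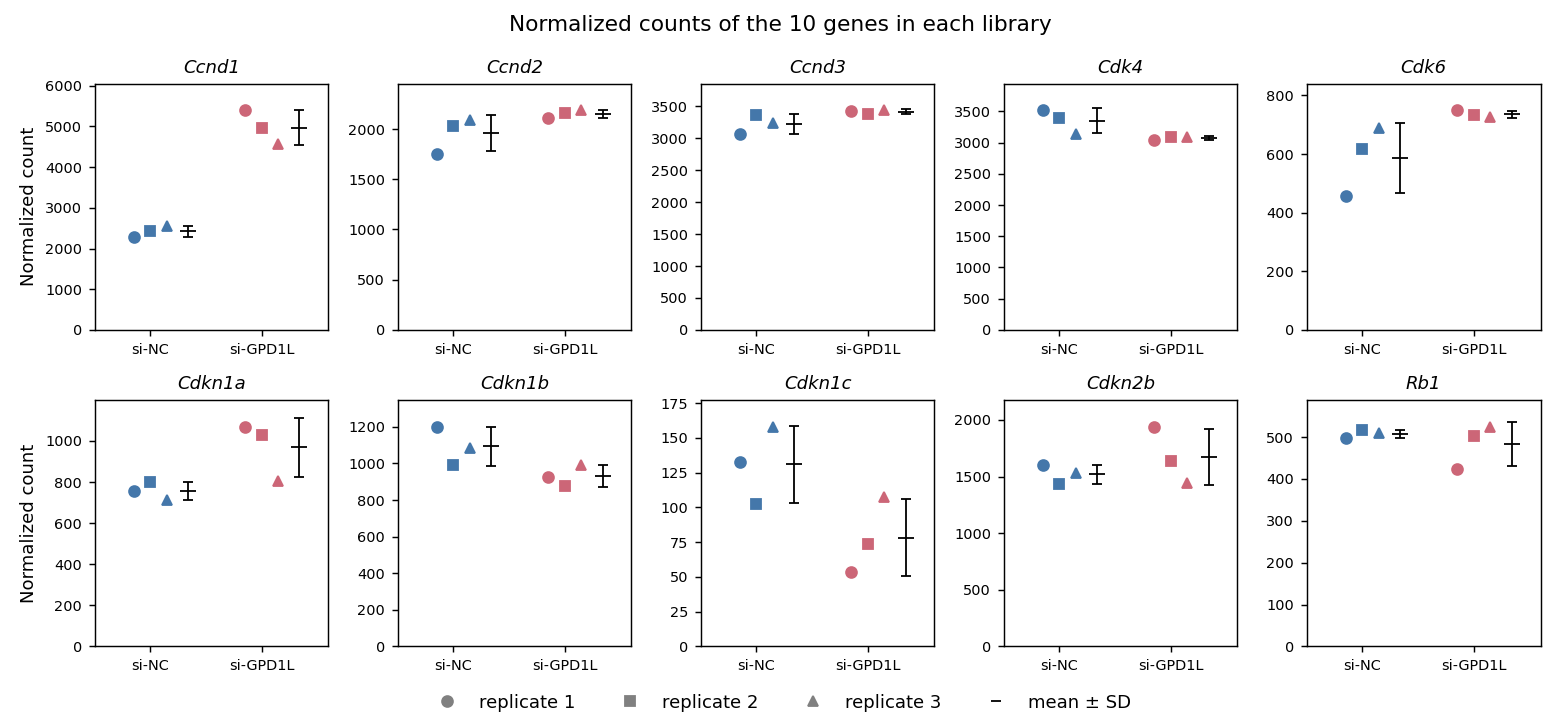
Normalized counts (y axes, each from 0) of the 10 genes in each of the 3 si-NC and 3 si-GPD1L libraries, with bars for the group mean and its SD. Ccnd1 stood between 2295 and 2556 in si-NC and between 4562 and 5405 in si-GPD1L, the widest gap among the 10 panels, and Cdkn1b, Cdkn1c, Cdkn2b and Rb1 overlapped between the groups.

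Ccnd1 (NCBI gene 58919, rn6 chr1:218090750-218100447, minus strand) encodes cyclin D1, the D-type cyclin most closely tied to growth factor and adhesion signals in fibroblasts. With si-NC it had 2295, 2423 and 2556 normalized counts, and with si-GPD1L 5405, 4958 and 4562. Every si-GPD1L library was therefore above every si-NC library, and the si-GPD1L library with the least Ccnd1 was replicate 3. The group means were 2425 ± 131 and 4975 ± 422 (SD, n = 3 each), a log2 fold change of 1.04 (SE 0.081, adjusted p = 2.95e-06), or 2.05-fold with a 95% confidence interval of 1.82 to 2.32. By p-value Ccnd1 ranked 88 of 14852. Counting error gave a coefficient of variation of 1.64%, against a spread between libraries of 5.39% in si-NC and 8.48% in si-GPD1L. The adjusted p stayed under 0.05 in all 14 alternatives, with log2 fold changes from 0.97 to 1.09. The call on fold size was less steady, since without si-NC replicate 1 the log2 value was 0.997 and without si-GPD1L replicate 1 it was 0.97, both short of 1. Both deposited transcripts of Ccnd1 rose, with a log2 fold change of 1.02 each and adjusted p-values of 3.07e-06 and 3.19e-06, beside 5.89% of the 37822 transcripts tested. These transcripts hold nearly the same reads, with 97.6% and 100% of the gene's counts, and are not separate evidence.

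Ccnd2 (NCBI gene 64033, chr4:159674885-159697207, minus strand) encodes cyclin D2, and its values did not pass the test. They were 1754, 2026 and 2095 normalized counts in si-NC and 2109, 2155 and 2189 in si-GPD1L. The 3 si-GPD1L libraries lay just above the si-NC libraries, whose lowest value, in replicate 1, widened their range. On the log2 scale the difference was 0.14 (SE 0.077, adjusted p = 0.328), and the 95% interval ran from 97.8% to 123.4% of the si-NC level. Without si-NC replicate 1 the log2 value was 0.061 (adjusted p = 0.551).

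Ccnd3 (NCBI gene 25193, chr9:15404816-15410905, minus strand) encodes cyclin D3 and moved still less. The si-NC libraries had 3062, 3362 and 3241 normalized counts and the si-GPD1L libraries 3431, 3376 and 3441. The groups did not overlap, but the gap between the nearest libraries was small beside the si-NC spread. Its log2 fold change was 0.084 (SE 0.068, adjusted p = 0.499), with an interval of 95.8% to 117% of si-NC, and without si-NC replicate 1 it was 0.048 (adjusted p = 0.6498). The confidence intervals of Ccnd2 and Ccnd3 both ended below the lower bound of Ccnd1, 182% of si-NC. A difference between the fold changes of these cyclins was not itself tested.

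The D-type cyclins are compared with each other in TPM, which accounts for gene length. Ccnd1 was the least abundant of the family in si-NC at 76.8 ± 7.62 TPM, below Ccnd2 at 178 ± 24.4 and Ccnd3 at 212 ± 19.0 TPM. In si-GPD1L it was still the least abundant, at 167 ± 13.4 TPM against 206 ± 4.86 for Ccnd2 and 238 ± 1.94 for Ccnd3. The order of the family means was thus the same in both groups, and Ccnd1 lay closer to the other two cyclins in si-GPD1L. The summed level of the family was 409, 490 and 500 TPM in si-NC and 618, 611 and 603 TPM in si-GPD1L. Ccnd1 held 16.8%, 15.9% and 16.7% of that sum in si-NC and 29.1%, 27.3% and 25.4% in si-GPD1L. Its share lay within a narrow band in the si-NC libraries, including replicate 1, and was above that band in every si-GPD1L library. The mean share was 16.5% ± 0.47 and 27.3% ± 1.86, while that of Ccnd2 was 38.0% and 33.8% and that of Ccnd3 45.5% and 38.9%. Of the 144 TPM by which the mean sums differed, Ccnd1 made up 89.8 TPM (62.3%), Ccnd2 28.5 TPM and Ccnd3 25.8 TPM. The ratio of Ccnd1 to Ccnd2 was 0.457, 0.418 and 0.426 in si-NC and 0.895, 0.803 and 0.728 in si-GPD1L. These TPM differences depend on the scaling between libraries: in normalized counts per kilobase the family summed to 3638 ± 224 in si-NC and 4503 ± 75.7 in si-GPD1L, and Ccnd1 made up 72.7% of the difference, Ccnd2 15.7% and Ccnd3 11.5%. The shares and ratios within a library are the same on both scales by construction.

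**Figure D2:**
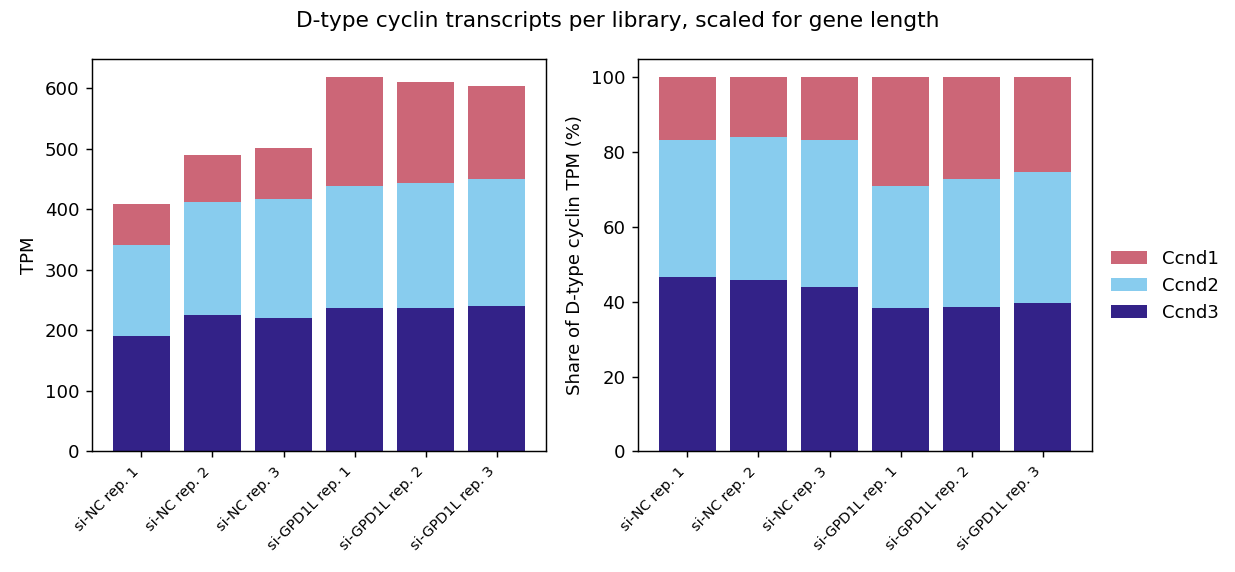
Deposited TPM (y axis, from 0) of Ccnd1, Ccnd2 and Ccnd3 stacked for each of the 6 libraries, which stand along the x axis by group and replicate. The stack summed to 409 to 500 TPM in si-NC and 603 to 618 TPM in si-GPD1L, and the Ccnd1 part went from 15.9% to 16.8% of the sum in si-NC to 25.4% to 29.1% in si-GPD1L.

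Cdk4 (NCBI gene 94201, chr7:70345971-70352689, plus strand) encodes the main catalytic partner of the D-type cyclins in fibroblasts and was the most abundant of the 10 genes per length, at 314 ± 10.1 TPM in si-NC and 305 ± 4.63 TPM in si-GPD1L. Its normalized counts were 3523, 3397 and 3138 in si-NC and 3041, 3095 and 3084 in si-GPD1L. The si-GPD1L libraries were all below the si-NC libraries, and 1 si-NC library was close to them. The log2 fold change of -0.13 (SE 0.070) had an adjusted p of 0.315 and an interval of 82.5% to 102% of si-NC, and without si-NC replicate 1 it was -0.089 (adjusted p = 0.353). Tspan31 and March9, on the opposite strand, overlap Cdk4 and had up to 1612 and 127 counts, and the strand setting of the counting is not given in the sources used here, so reads of the overlapping ends cannot be told apart.

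Cdk6 (NCBI gene 114483, chr4:27781728-27969653, minus strand) encodes the second D-cyclin kinase and had 456, 616 and 687 normalized counts in si-NC and 750.2, 732 and 728 in si-GPD1L. Every si-GPD1L value was above every si-NC value, and si-NC replicate 1 was far below the other si-NC libraries. The log2 fold change was 0.33 (SE 0.12, adjusted p = 0.135; 95% interval 104% to 151% of si-NC), and the spread was 20.2% in si-NC against 1.63% in si-GPD1L. The value rested on single libraries: without si-NC replicate 1 it was 0.17 (adjusted p = 0.159), and without si-NC replicate 3 it was 0.46 (adjusted p = 0.0304). Per length, Cdk6 was a small part of the kinase pool, at 10.5 ± 2.55 TPM in si-NC and 13.8 ± 0.154 TPM in si-GPD1L. Cdk4 accordingly made up 96.8% ± 0.80 of the summed TPM of the 2 kinases in si-NC and 95.7% ± 0.10 in si-GPD1L. The ratio of Cdk4 to Cdk6 was 40.9, 29.2 and 24.2 in si-NC and 21.5, 22.4 and 22.4 in si-GPD1L, and again si-NC replicate 1 was the farthest from the rest.

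Cdkn1a (NCBI gene 114851, chr20:6348422-6358864, plus strand) encodes p21, the CDK inhibitor best known as a target of p53. Its normalized counts were 754, 799 and 713 in si-NC and 1069.7, 1029 and 806 in si-GPD1L. Replicates 1 and 2 of si-GPD1L were clearly above the si-NC libraries, while replicate 3 was just above the highest of them. The log2 fold change was 0.36 (SE 0.10), the 95% interval 109.7% to 149.7% of si-NC, and the adjusted p 0.0603, so Cdkn1a did not pass the test. It was under 0.05 in 6 of 14 alternatives, with adjusted p from 0.00316 to 0.264. Leaving out si-GPD1L replicate 3 gave a log2 fold change of 0.47 (adjusted p = 0.0157) while leaving out si-GPD1L replicate 1 gave 0.28 (adjusted p = 0.261). Without si-NC replicate 1 the log2 value stayed at 0.36 but the adjusted p was 0.0223. Without replicate 2 or replicate 3 of si-NC the adjusted p was 0.102.

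Cdkn1b (NCBI gene 83571, chr4:168689043-168694159, plus strand) encodes p27, the inhibitor that accumulates in quiescent cells and is degraded through Skp2 as cells enter S phase. The si-NC libraries had 1201, 992 and 1086 normalized counts and the si-GPD1L libraries 926, 874 and 992. The groups overlapped, since the highest si-GPD1L library reached the lowest si-NC library. Its log2 fold change was -0.23 (SE 0.086, adjusted p = 0.131), with an interval of 74.8% to 96.9% of si-NC, and without si-NC replicate 1 it was -0.16 (adjusted p = 0.175). The adjusted p was above 0.05 in all 14 alternatives.

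Cdkn1c (NCBI gene 246060, chr1:216661067-216663791, minus strand) encodes p57, an imprinted inhibitor known from development, and was the lowest of the 10 genes. It had 132, 103 and 158 normalized counts in si-NC and 53.4, 73.6 and 108 in si-GPD1L. Replicate 3 of si-GPD1L was slightly above replicate 2 of si-NC, so the groups overlapped, and the si-GPD1L libraries differed by more among themselves, in proportion to their mean, than those of any other of the 10 genes. On the log2 scale the difference was -0.74 (SE 0.23, adjusted p = 0.0824), or 42.0% to 85.3% of si-NC. Counting error alone gave a coefficient of variation of 9.75%, against 1.64% to 4.49% for the other genes, and the spread between libraries was 21.2% in si-NC and 35.1% in si-GPD1L. Leaving out replicate 3 of si-GPD1L moved this value to -1.04 (adjusted p = 0.0360), and leaving out replicate 1 moved it to -0.54 (adjusted p = 0.279). Cttn overlaps Cdkn1c on the same strand in the table and had up to 587 counts.

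The shares of the CIP/KIP inhibitors are given as a description, since no member passed the test and shares were not tested. The summed level of the family was 114, 113 and 117 TPM in si-NC and 128, 125 and 118 TPM in si-GPD1L, so the groups came close in replicate 3 of each. These TPM sums depend on the scaling between libraries, as those of the cyclins did, and are not read as a rise. Cdkn1a held 40.4%, 46.7% and 40.6% of the sum in si-NC and 56.8%, 56.6% and 46.7% in si-GPD1L, so that replicate 3 of si-GPD1L was level with the highest si-NC library. The mean share of Cdkn1b was 50.6% ± 2.66 in si-NC and 42.5% ± 4.27 in si-GPD1L, with the nearest libraries at 47.7% and 47.4%. The mean share of Cdkn1c was 6.87% ± 1.42 and 4.09% ± 1.62, and its groups overlapped. The ratio of Ccnd1 to Cdkn1b, in TPM, was 1.13, 1.45 and 1.40 in si-NC and 3.47, 3.37 and 2.73 in si-GPD1L, with no overlap between the groups.

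Cdkn2b (NCBI gene 25164, chr5:107834353-107857428, minus strand) encodes p15, the INK4 protein that transforming growth factor beta induces. Its normalized counts were 1604, 1435 and 1528 in si-NC and 1942, 1634 and 1445 in si-GPD1L. Replicates 1 and 2 of si-GPD1L were above every si-NC library, replicate 2 by little, and replicate 3 was among them. The log2 fold change of 0.14 (SE 0.099) had an adjusted p of 0.446 and an interval of 94.7% to 127.5% of si-NC. Leaving out replicate 1 of si-GPD1L moved the log2 value to 0.015, and leaving out replicate 3 moved it to 0.23.

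Rb1 (NCBI gene 24708, chr15:55081582-55209060, minus strand) encodes the retinoblastoma protein, the substrate of the D-cyclin kinases. It had 498, 517 and 509 normalized counts in si-NC and 423, 502 and 525 in si-GPD1L, and only replicate 1 of si-GPD1L stood apart, below the rest. Rb1 had a log2 fold change of -0.071 (SE 0.096, adjusted p = 0.719), with an interval of 82.4% to 110.1% of si-NC. Lpar6 lies within Rb1 on the opposite strand and had up to 253 counts.

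**Figure D3:**
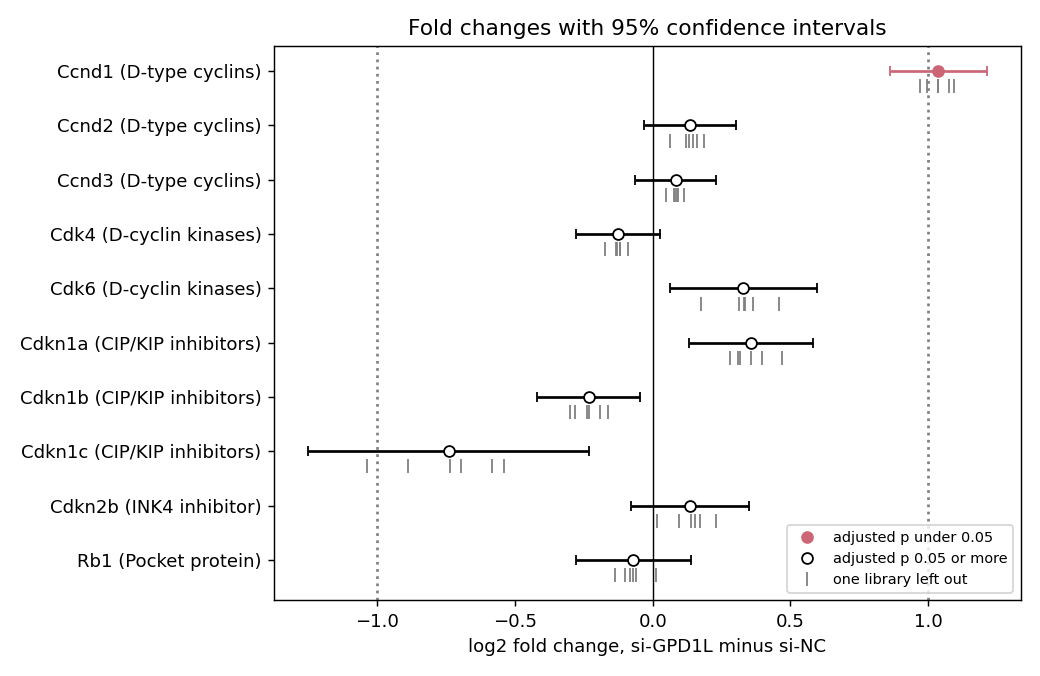
Log2 fold change of si-GPD1L over si-NC (x axis) for each of the 10 genes (y axis, by role), with points for the estimate of edgeR's quasi-likelihood fit and bars for its 95% confidence interval. Ccnd1 at 1.04 was the only gene with an adjusted p under 0.05, and the intervals of Ccnd2, Ccnd3, Cdk4, Cdkn2b and Rb1 included 0.

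Of the 26 transcripts tested from the other 9 genes, 0 passed edgeR's quasi-likelihood test on transcript counts, and 15 had an unadjusted p under 0.05, beside 22.3% of all transcripts tested. They were 7 of Cdkn1c, 4 of Cdk6, 2 of Cdkn1a and 2 of Cdkn1b, which share reads within each gene. Their log2 fold changes stayed close to those of the genes. The 7 transcripts of Cdkn1c ranged from -0.78 to -0.70, the 5 of Cdk6 from 0.30 to 0.32 and the 2 of Cdkn1a were both at 0.33. A read shared by transcripts of a gene is counted for each of them, so these values repeat the gene's own.

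The level of the 10 genes per length fell in a similar order in both groups. In si-NC it ran from Cdk4, Ccnd3, Ccnd2 and Ccnd1 through Cdkn1b at 58.0 ± 3.68 TPM, Cdkn1a at 48.8 ± 3.40 TPM and Cdkn2b at 27.8 ± 1.09 TPM to Rb1 at 14.8 ± 0.94 TPM, Cdk6 at 10.5 TPM and Cdkn1c at 7.90 ± 1.81 TPM. Among neighbours in this order, Ccnd3 and Ccnd2 overlapped between libraries, as did Cdk6 and Cdkn1c. In si-GPD1L Cdkn1a at 66.2 ± 9.58 TPM and Cdkn1b at 52.4 ± 3.29 TPM stood in the opposite order but overlapped, and so did Rb1 and Cdk6. The place of Cdkn2b depended on the length used: the table gives the gene 6997 bases, while NM_130812.3, the transcript with most of its counts, has 2323 bases, and with that length the si-NC level was 2.63 times as high and Cdkn2b moved from rank 7 to rank 5. For the other genes this factor was at most 1.17.

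The other cell cycle genes are given as counts beside the shares of all genes tested, at which lists of this size would hold few calls. The remaining G1 machinery (cyclin E, CDK2, E2F and pocket proteins, the CDK-activating kinase and the ubiquitin ligases of this stage) had 29 tested genes. By edgeR's quasi-likelihood test 0 were higher and 0 lower, beside 4.03% and 2.33% of all genes. DESeq2's Wald test and edgeR's exact test also gave 0 and 0. In the quasi-likelihood test 2 had an unadjusted p under 0.05, beside 22.4% of all genes. The median log2 fold change was -0.027. Skp2, the receptor subunit of the ligase that marks p27 for degradation, was at 0.32 (SE 0.12, adjusted p = 0.141), the core subunit Skp1 at -0.26 (SE 0.11, adjusted p = 0.169) and Ccnh, the cyclin of the CDK-activating kinase, at -0.32 (SE 0.15, adjusted p = 0.239).

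Of 26 E2F targets of the G1/S transition, 2 were higher and 0 lower, beside 4.03% and 2.33% of all genes tested. DESeq2's Wald test gave 2 higher and 0 lower, where all 14852 genes tested gave 683 and 492. By edgeR's exact test 3 were higher and 0 lower, where all genes gave 873 and 655. In the quasi-likelihood test 8 of the 26 had an unadjusted p under 0.05, beside 22.4% of all genes. The median log2 fold change was 0.17, and 19 of the 26 were above 0, beside 49.1% of all genes. Mcm3 and Mcm5, subunits of the replicative helicase, rose by 0.31 (SE 0.078, adjusted p = 0.0368) and 0.41 (SE 0.10, adjusted p = 0.0371) on the log2 scale. Tk1, the thymidine kinase of S phase, had a similar value of 0.31 (SE 0.090) but an adjusted p of 0.0631. Mcm3 was under 0.05 in 7 of 14 alternatives and Mcm5 in 10. Among the fits with 1 library left out, Mcm3 was under 0.05 in 1 and Mcm5 in 3, so both calls depended on single libraries. None of the 20 mitosis genes passed edgeR's quasi-likelihood test, beside 6.36% of all genes, nor DESeq2's Wald test or edgeR's exact test. In the quasi-likelihood test 1 had an unadjusted p under 0.05, beside 22.4% of all genes, and the median was 0.073. Among them Mki67, the usual marker of cycling cells, was at 0.23 (SE 0.098, adjusted p = 0.182), Top2a, the topoisomerase of dividing cells, at 0.15 (SE 0.073, adjusted p = 0.243), and Cdc20, an activator of the anaphase-promoting complex, at 0.16 (SE 0.11, adjusted p = 0.434).

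The lists of ERK-induced genes, p53 targets and Wnt/beta-catenin targets were mixed in direction. They hold transcripts that these pathways change, and the activity of the pathways was not measured. Of 12 ERK-induced genes 3 were higher and 1 lower, beside 4.03% and 2.33% of all genes, with a median of 0.053. By edgeR's exact test 4 were higher and 1 lower. Over all 14852 genes tested the exact test gave 873 higher and 655 lower. The ETS factors Etv5 (0.50, SE 0.084, adjusted p = 0.00345) and Etv4 (0.50, SE 0.11, adjusted p = 0.0168) and the phosphatase Dusp4 (0.37, SE 0.094, adjusted p = 0.0394) rose, and the feedback inhibitor Spry2 fell by 0.25 on the log2 scale (SE 0.064, adjusted p = 0.0368). Etv5 was under 0.05 in all 14 alternatives, Etv4 in 12, Spry2 in 9 and Dusp4 in 8. Among the fits with 1 library left out, Etv5 was under 0.05 in 6, Etv4 in 4 and Spry2 and Dusp4 in 2 each. Of 18 p53 targets 2 were higher and 1 lower, beside 4.03% and 2.33% of all genes, with a median of 0.014, and edgeR's exact test gave 2 higher and 2 lower. The receptor gene Eda2r (0.50, SE 0.12, adjusted p = 0.0285) and the nuclease gene Aen (0.37, SE 0.099, adjusted p = 0.0477) rose, while the growth arrest gene Gadd45a fell by 0.37 on the log2 scale (SE 0.082, adjusted p = 0.0194). Eda2r and Gadd45a were each under 0.05 in 11 of 14 alternatives and Aen in 8. With 1 library left out, Eda2r and Gadd45a were under 0.05 in 3 fits each and Aen in 2. Only 7 of 12 Wnt/beta-catenin targets were tested, and 0 were higher and 0 lower by any of the 3 tests. By edgeR's quasi-likelihood test the shares of all genes were 4.03% and 2.33%. In that test 1 of the 7 had an unadjusted p under 0.05, beside 22.4% of all genes. Tcf7, a transcription factor of that pathway, was at 0.44 (SE 0.15, adjusted p = 0.108), the membrane antagonist Apcdd1 at -0.17 (SE 0.10, adjusted p = 0.358) and the ligase gene Znrf3 at -0.083 (SE 0.21, adjusted p = 0.858).

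The interferon-stimulated genes separated the groups more than any of these lists. All 17 tested were higher, beside 4.03% of all genes tested, with a median log2 fold change of 6.02. Their summed level was 152 to 154 TPM in si-NC and 1397 to 1740 TPM in si-GPD1L. Mx2, an antiviral GTPase, had 7.05 ± 1.95 normalized counts in si-NC and 4903 ± 559 in si-GPD1L, a rise of 9.42 on the log2 scale (SE 0.16, adjusted p = 3.54e-12), Oasl2, of the oligoadenylate synthetase family, by 4.24 (SE 0.095, adjusted p = 2.77e-11), and Ifit1, which binds foreign RNA, by 6.30 (SE 0.16, adjusted p = 9.45e-11). These values moved with the same 2 groups as Ccnd1, and their part in the Ccnd1 and Cdkn1a values was not tested.

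**Figure D4:**
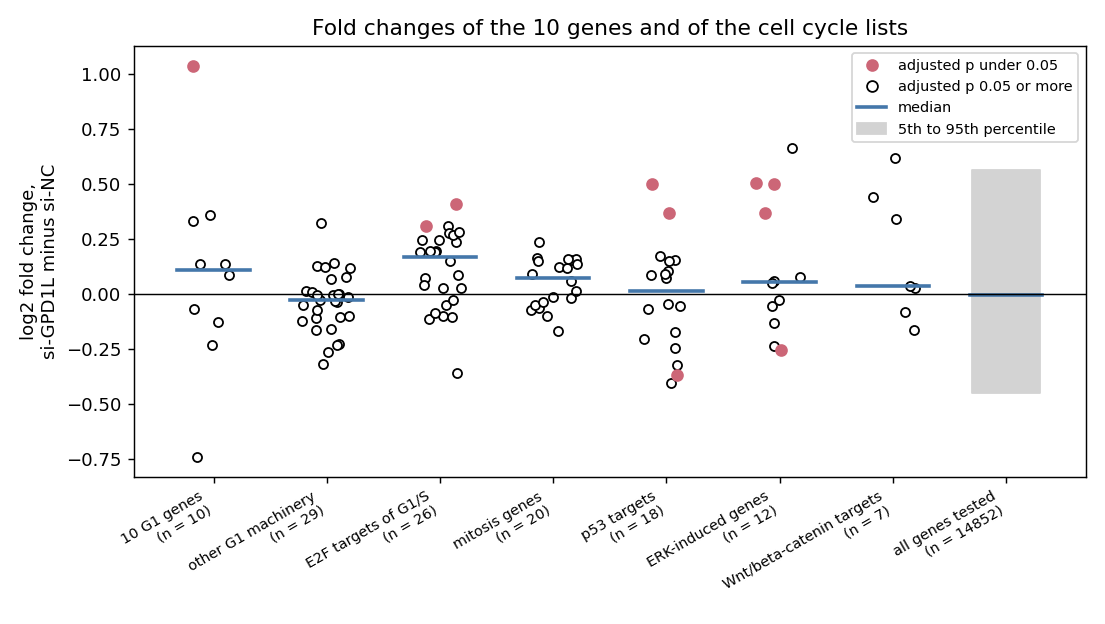
Log2 fold change of si-GPD1L over si-NC (y axis) for each tested gene of the 10 G1 genes and of the G1, E2F, mitosis, p53, ERK and Wnt lists (x axis), with a bar for each list's median and a grey band from the 5th to the 95th percentile of all genes tested (-0.45 to 0.56). The medians of the lists lay between -0.027 and 0.17. Ccnd1, chosen as a known responder, was at 1.04, above every gene of these lists. The interferon-stimulated genes, all at 1.43 or more, are not plotted.

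Among 11038 candidates, the genes whose pattern over the 6 libraries was most like that of Ccnd1 were Notch4, Mov10, Bace2, Penk and Zfp365. Genes whose symbols start with LOC, RGD, AABR or AC and a digit were not candidates. Likeness was measured by the root mean square difference of centred log2 normalized counts. That difference was 0.058 for Notch4, a Notch receptor, 0.063 for Mov10, an RNA helicase, 0.074 for Bace2, a protease, 0.085 for Penk, which encodes proenkephalin, and 0.087 for the zinc finger gene Zfp365. Their own log2 fold changes were 1.09, 0.95, 1.16, 1.00 and 0.92. Notch4 was low, with means of 39.6 normalized counts in si-NC and 84.7 in si-GPD1L. It met the minimum mean of 50 for candidates only through si-GPD1L. Since the likeness was measured over the same libraries, it includes the difference between the groups.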

How the data were processed

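Poly-A RNA sequencing of 6 libraries was analysed (3 si-NC, 3 si-GPD1L, grouped and numbered by their titles). The submitters' processing notes name rn6, bcl2fastq, HISAT2 2.1.0 and HTSeq 0.12.4, with no roles; the strand setting is not given in the sources used here. The authors deposited whole-number read counts per gene and per transcript, without normalization, and TPM, scaled for the gene length of the table. The files also hold the authors' group comparisons (fold changes, p-values, q-values) and enrichment terms, which were not used. All columns were matched by name.

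With R 4.3.3 and edgeR 4.0.16, gene counts were filtered by filterByExpr, normalized by TMM and compared by the quasi-likelihood F test, with Benjamini-Hochberg adjustment over all 14852 genes tested (threshold 0.05, and an absolute log2 fold change over 1 as a second rule). Normalized counts are counts scaled to the mean effective library size. SE is the log2 fold change over the root of F, and 95% intervals are not adjusted. TPM was used for levels and shares only. The procedure was tested on simulated data. Library totals of 16892255 to 20149732 left counting error below 5% of the level for all of the 10 genes but Cdkn1c, with a biological coefficient of variation of 0.0894 over all genes.

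The 10 genes and the gene lists were chosen with earlier results of these data known. Genes named were the 10, Gpd1l, up to 3 per list with the smallest adjusted p (mean of at least 50 normalized counts) and the 5 most like Ccnd1; Dusp4 was named because its list's count was 5 or fewer, after its values were seen. Same-numbered libraries of the 2 groups had correlations of deviations of -0.016, -0.0058 and 0.044, so the numbers were not treated as pairs. Alternatives were DESeq2 1.42.0 (test and size factors), edgeR's exact test, upper-quartile factors, filters, a replicate block, transcript counts, other thresholds and each library left out.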

Additional observations from a re-analysis of the deposited data

How the results depend on the processing

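With 1 gene of the 10 higher and 0 lower at the reported settings, DESeq2's Wald test, edgeR's exact test, a replicate block and a threshold of 0.1 each gave 2 higher and 1 lower, and no filter beyond 1 count gave 3 higher and 1 lower. The added genes were Cdkn1a (higher) and Cdkn1c (lower), and Cdk6 (higher) without the filter. Over all 14852 genes tested, DESeq2's Wald test gave 683 higher and 492 lower, and edgeR's exact test 873 and 655. The replicate block gave 560 and 361, and no filter beyond 1 count 1055 and 874 of 24928 genes. The counts over all genes at a threshold of 0.1 are not given here. Leaving out 1 library gave 1 to 2 higher, 0 to 1 lower and 0 to 2 past both thresholds, the 0 coming from leaving out replicate 1 of either group and the 2 from leaving out si-GPD1L replicate 3. Over all genes, 945 had an adjusted p under 0.05, against 1528 by edgeR's exact test, 1929 with no filter beyond 1 count, 623 with transcript counts summed per gene and 361 to 1531 when 1 library was left out (1531 without si-NC replicate 1, 550 without si-NC replicate 2, 1451 without si-NC replicate 3, and 366, 361 and 591 without si-GPD1L replicates 1, 2 and 3). The cause was not tested. The log2 value of Rb1 ran from -0.14 to 0.013 when 1 library was left out, changing sign without si-GPD1L replicate 1. Of 140 log2 fold changes of the 10 genes under alternatives, 126 kept their direction and side of the threshold, 13 passed it in addition and 1 changed sign. The replicate block left 921 genes called, and the libraries did not each correlate best with their own number; under the block Cdkn1a had an adjusted p of 0.0369 and Cdkn1c of 0.0392. Where a group was left with 2 libraries, the spread was pooled with the other group. Depth limited Cdkn1c most, with a counting error of 9.75%.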

Other observations

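The si-GPD1L libraries did not stand equally far from si-NC in the G1 genes. For 6 of the 10 genes (Ccnd1, Cdk6, Cdkn1a, Cdkn1b, Cdkn1c and Cdkn2b) si-GPD1L replicate 3 was the library nearest to the si-NC mean, for 3 of the 10 it was replicate 2 and for 1 it was replicate 1. Replicate 3 was also the nearest for Gpd1l, with 302.5 normalized counts against 262 to 332 in si-NC. This was noticed after the values were seen and was not tested. The share of all genes for which replicate 3 was the nearest is not given here. The count therefore cannot be read as particular to the G1 genes or tied to the Gpd1l level. In replicate 3 of si-GPD1L the interferon-stimulated genes summed to 1490 TPM, between the values of replicate 1 (1397 TPM) and replicate 2 (1740 TPM).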
